A study of Mus musculus with 7 samples.

Results

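The miR-200 family and miR-205 are small RNAs of epithelial cells that repress the transcription factors ZEB1 and ZEB2. Their members were taken by name from the mouse miRNAs of an Agilent array and number 6 of 696: mmu-miR-200a, mmu-miR-200b and mmu-miR-429, which lie in a cluster on chromosome 4, mmu-miR-200c and mmu-miR-141, which lie in a cluster on chromosome 6, and mmu-miR-205 on chromosome 1. ZEB1 and ZEB2 silence the gene for E-cadherin, the junction protein of epithelial sheets, by binding E-box motifs, and they bind such motifs in the promoters of the miR-200 clusters as well, so that repressor and miRNA hold each other down. In the kidney the miR-200 family is known from tubule and collecting duct epithelium, while miR-205 is best known from stratified epithelia such as skin and urothelium. Transforming growth factor beta lowers these miRNAs in cultured epithelial cells that take on a mesenchymal form.

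Total RNA came from kidneys of male C57BL/6 mice aged 9 to 12 weeks at the time they were obtained, taken at day 28 after the ureter of the left kidney was either tied off (unilateral ureteral obstruction, a model of renal fibrosis) or only exposed (sham). Each RNA was labelled with Cy3 and read on a 1-colour array, so that a value is a fluorescence intensity. Of the 7 arrays, 3 carry the group label treated (replicates 1, 3 and 4) and 4 the label non-treated (replicates 1 to 4), and the labels give no genotype or agent that differs between the groups. The labels do not say which operation the word treated stands for, and they do not tie an array to a separate animal, although the study describes 4 mice in each group, of which 3 arrays labelled treated were analysed here. Since the arrays carry no animal numbers, p-values measure the spread between arrays. The RNA is that of bulk kidney tissue, in which fewer cells of a type and less RNA per cell cannot be told apart.

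Every difference is given as labelled treated minus labelled non-treated on the log2 scale, and treated and non-treated arrays are named by these labels throughout. With treated read as obstructed, these signs are opposite to those the study gives for obstructed over sham kidneys, so which group is obstructed is not settled here. Agilent's software detected 193 to 214 miRNAs on treated arrays and 232 to 282 on non-treated ones. Before any scaling, the 186 miRNAs found on each of the 7 arrays averaged 6.09 ± 0.32 (SD, n = 3) in log2 signal on the treated arrays and 7.24 ± 0.40 (SD, n = 4) on the others, and the 27 positive control probes were dimmer there too, at 11.19 ± 0.29 (SD, n = 3) against 11.88 ± 0.37 (SD, n = 4). Non-treated replicate 3 stood apart from its group in both measures, at 6.65 against 7.40 to 7.52 for the miRNAs and at 11.33 against 12.02 to 12.08 for the controls. Each array was therefore scaled by the mean of these 186 miRNAs, and values below are such scaled log2 signals unless stated otherwise. Differences between the groups had a median of -0.13 over the 236 miRNAs tested, those that a group showed on each of its arrays.

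The mature sequences show why the family is read as a unit and where its members can be mistaken for each other. They are taken from RefSeq by name, written 5′ to 3′, with the seed, bases 2 to 8, by which a miRNA pairs with its targets, in capitals.
miR-200b: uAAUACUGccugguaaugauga
miR-429: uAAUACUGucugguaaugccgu
miR-200c: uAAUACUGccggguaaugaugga
miR-200a: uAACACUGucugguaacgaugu
miR-141: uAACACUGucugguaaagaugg
miR-205: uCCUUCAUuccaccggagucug
The seed AAUACUG is shared by miR-200b, miR-429 and miR-200c, and the seed AACACUG by miR-200a and miR-141. These seeds differ at 1 base, position 4 counted from the 5′ end. Each seed group therefore draws from both genomic clusters. Over 22 compared positions miR-200b and miR-200c differ at positions 11 and 22 only, and miR-200a and miR-141 at positions 17 and 22 only. Probes for such close sequences may bind each other's target, and the part of this in the values was not tested. miR-205 has another seed and shares 5 to 7 of 22 positions with the family.

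On the assembly GRCm38.p6 the hairpins of Mir200b (chr4:156055681-156055750), Mir200a (chr4:156054896-156054985) and Mir429 (chr4:156053905-156053987) lie on the minus strand within 1846 bases of each other. All lie inside the annotated long non-coding RNA gene Gm13648, whose start is 4052 bases before the hairpin of Mir200b. Mir200c (chr6:124718322-124718390) and Mir141 (chr6:124717914-124717985) lie within 477 bases, in the stretch between the protein-coding genes Phb2 and Ptpn6. Mir205 (chr1:193507463-193507530) lies inside its host gene Mir205hg, 2680 bases from the start. The 300 bases around the start of Gm13648 (chr4:156059753-156060052, minus strand, 250 bases before the start and 50 after) are shown because the members inside this gene moved together. The capitals mark CACCTG, the E-box form that ZEB proteins are known to bind.
Gm13648 start window: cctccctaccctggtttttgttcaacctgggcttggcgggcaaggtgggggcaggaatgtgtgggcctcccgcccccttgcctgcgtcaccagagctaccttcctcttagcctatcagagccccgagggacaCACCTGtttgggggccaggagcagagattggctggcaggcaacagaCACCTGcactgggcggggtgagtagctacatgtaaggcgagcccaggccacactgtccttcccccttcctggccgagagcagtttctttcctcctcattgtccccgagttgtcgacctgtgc
CACCTG was searched on both strands, that is also as CAGGTG, and was found 118 and 72 bases before the start. Of 32851 such windows of mouse genes, 20.2% hold at least 1 copy of the motif and 2.88% at least 2. The window of Mir205hg holds 1 copy, 193 bases before the start. No start window was available for the cluster of Mir200c and Mir141, so the motif was not searched there. A match gives the presence of the letters and no binding was measured.

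The members of the chromosome 4 cluster were all higher on the arrays labelled treated, by 0.83 to 0.97, close to a doubling of the scaled signal, though their sign turned where the arrays were not scaled and none of them passed the test when the mean of all miRNAs was used for scaling. miR-205 was lower, by at least 3.76-fold at its first probe and at least 7.40-fold at its second. These bounds hold for the main scaling and background correction only, and with normexp on median signals the difference of miR-205 was -0.54. The members of the chromosome 6 cluster did not pass the test in either direction. Of the 5 members of the miR-200 family, 3 were called higher and 0 lower, with a median difference of 0.83, and over all 236 miRNAs tested 25.8% were called higher and 34.7% lower at a limma adjusted p below 0.01. All members of the family were detected on all 7 arrays.

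miR-200b was read at 9.19, 9.26, 9.66 and 9.29 on the non-treated arrays and at 10.21, 10.29 and 10.26 on the treated ones. No array labelled non-treated reached the lowest of the other group, and the treated arrays lay closer together (SD 0.04, n = 3) than the non-treated ones (SD 0.21, n = 4). The difference was 0.90 (SE 0.12), or 1.87-fold, with a limma adjusted p of 1.70e-04. miR-200a, which carries the other seed, was read at 8.69, 8.84, 8.90 and 8.81 on the non-treated arrays and at 9.59, 9.71 and 9.61 on the treated ones. Its groups did not overlap either. The difference was 0.83 (SE 0.08), or 1.78-fold, with a limma adjusted p of 3.61e-05. miR-429 was read at 8.15, 8.20, 8.39 and 8.23 on the non-treated arrays and at 9.11, 9.32 and 9.23 on the treated ones. It had the largest difference of the family, 0.97 (SE 0.09), or 1.96-fold, with a limma adjusted p of 2.75e-05. Among the 236 miRNAs ordered from the highest difference down, miR-429, miR-200b and miR-200a stood at ranks 40, 43 and 45.

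In contrast, miR-200c was read at 7.33, 7.26, 7.63 and 7.29 on the non-treated arrays and at 7.26, 7.21 and 7.30 on the treated ones. The groups overlapped, and the highest of all values was that of non-treated replicate 3. The difference was -0.12 (SE 0.11) with a limma adjusted p of 0.332, and it lay at the median of all tested miRNAs. miR-141 was read at 6.51, 6.63, 7.06 and 6.72 on the non-treated arrays and at 7.14, 7.08 and 6.95 on the treated ones. All treated values lay above 3 of the 4 non-treated ones, and non-treated replicate 3 lay among them. The difference was 0.33 (SE 0.13) with a limma adjusted p of 0.0582. Without that replicate miR-141 passed the test, at 0.41 with a limma adjusted p of 0.00459. A p above the threshold does not show that these levels were equal.

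miR-205 was read at 7.10, 6.29, 5.25 and 6.92 on the non-treated arrays and at 2.51, 3.23 and 3.38 on the treated ones. The groups lay far apart, although the non-treated arrays were spread more widely (SD 0.83, n = 4) than for any other member. The difference was -3.35 (SE 0.43) with a limma adjusted p of 1.40e-04. Agilent's software detected miR-205 on 4 of 4 arrays labelled non-treated and on 1 of 3 labelled treated, so the level on the treated arrays was near the limit of detection. Raising each treated array that missed detection to at least its lowest detected signal left miR-205 10.1-fold lower on the treated arrays. This value is no lower bound. Treated replicate 4 kept its measured 3.38, since its lowest detected signal was 0.99, and treated replicate 1 moved only from 2.51 to 2.55. The bounds of the single probes, for the main scaling and background correction, are smaller, at 3.76-fold and 7.40-fold. The difference was -5.53 with Agilent's own summed signal, which stood at 0.1 on treated replicates 1 and 4, and -0.54 with normexp on median signals, which adds an offset of 50. These settings differ in several steps, and which of them set the size was not tested. Over the 6 members, 4 had groups that did not overlap, and over all 236 miRNAs tested this share was 71.6%. For each of these 4 an exact 2-sided permutation test over the arrays gave p = 0.0571, the smallest that 3 against 4 arrays allow, with p = 0.171 for miR-200c and p = 0.114 for miR-141 in the same exact test.

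**Figure D1:**
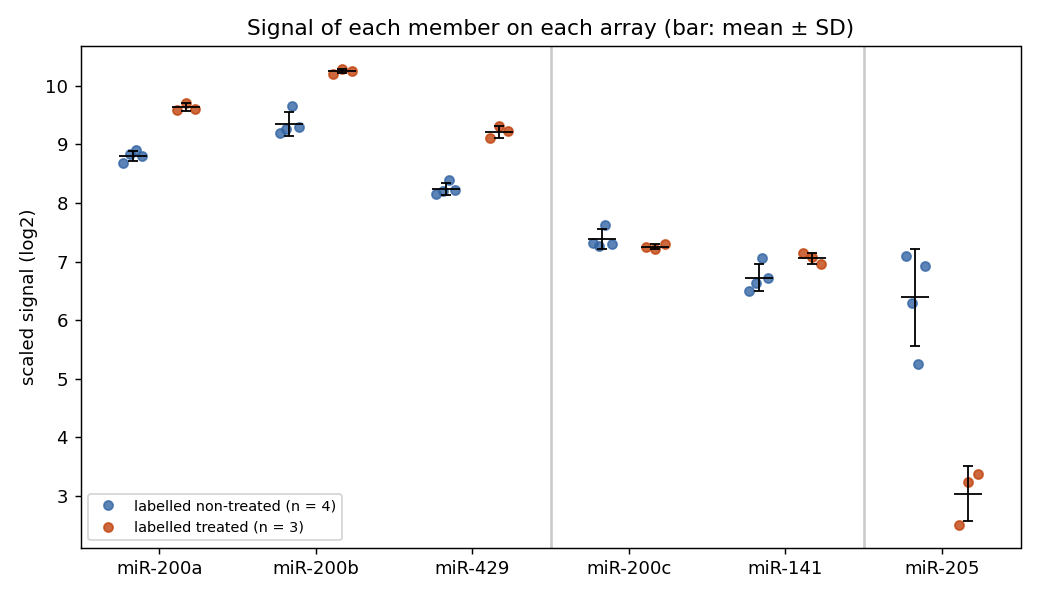
Scaled log2 signal of each member (vertical axis) on the 4 arrays labelled non-treated (blue) and the 3 labelled treated (red), 1 point an array, with mean and SD as bars; grey lines part the chromosome 4 cluster, the chromosome 6 cluster and miR-205. The treated points lie above the non-treated ones for miR-200a, miR-200b and miR-429, overlap with them for miR-200c and miR-141, and lie below them for miR-205; without scaling, the sign of the first 3 turned.

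The arrays were on 1 slide, in 2 rows that each held both groups. Row 1 held treated replicate 1 with non-treated replicates 1 and 2, so its values rest on a single treated array. Row 2 held treated replicates 3 and 4 with non-treated replicates 3 and 4, among them the dim non-treated replicate 3. Within the rows the differences were 0.82 and 0.81 for miR-200a, 0.98 and 0.80 for miR-200b, and 0.93 and 0.96 for miR-429. For miR-205 they were -4.19 in row 1 and -2.78 in row 2. All of these kept their direction in both rows. For the chromosome 6 members the rows gave -0.04 and -0.21 for miR-200c and 0.57 and 0.13 for miR-141.

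Each member is read by 2 probes of different design, printed in 10 spots each. Probes of 1 miRNA share its RNA and are no replicates, but they show whether a difference rests on a single probe. In a fit over 528 probes, 20.3% were called higher and 23.5% lower at a limma adjusted p below 0.01. Of the 6 probes for the chromosome 4 cluster 5 were called higher, of the 4 probes for the chromosome 6 cluster 0 were called, and of the 2 probes for miR-205 both were called lower. The probes for miR-200a gave 0.86 (SE 0.07) and 0.74 (SE 0.06). Those for miR-429 gave 0.86 (SE 0.12) and 1.09 (SE 0.06). The probe for miR-200b that was not called gave 0.93 (SE 0.21) with a limma adjusted p of 0.0122, against 0.90 (SE 0.11) for the other. Its difference was thus no smaller and its error larger. The probes for miR-200c gave -0.21 (SE 0.13) and -0.09 (SE 0.09), and those for miR-141 gave 0.25 (SE 0.19) and 0.34 (SE 0.13), so that both probes of each miRNA had the same sign.

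**Figure D2:**
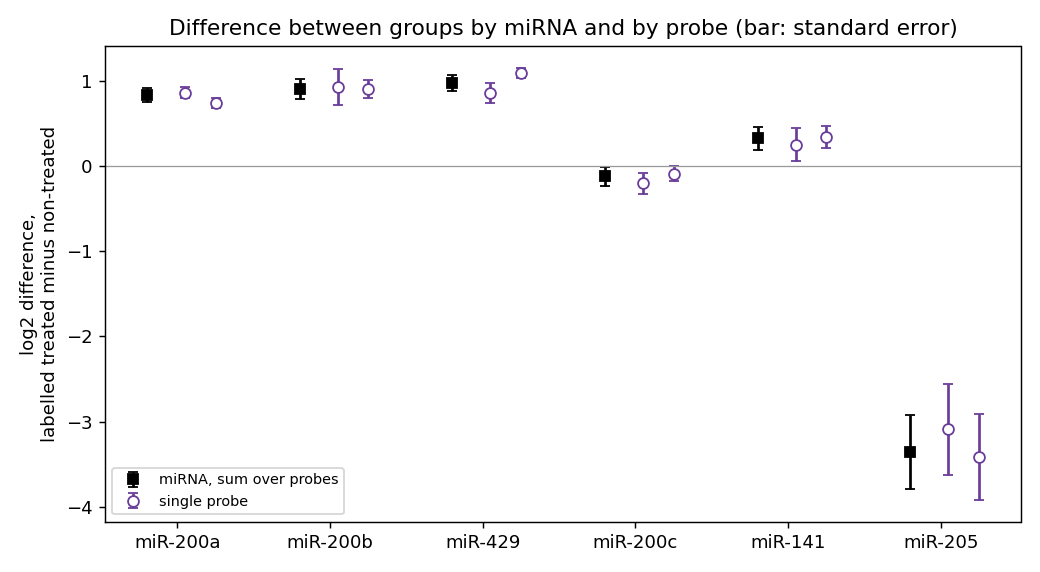
Log2 difference between arrays labelled treated and labelled non-treated (vertical axis) for each member as the sum over its probes (black squares) and for each single probe (open circles), with the standard error as bars. Both probes of a member have the same sign, from 0.74 to 1.09 for the chromosome 4 cluster, whose sign turned without scaling, and below 0 for miR-205, where 1 probe was well above background on no treated array and the other on 1, so that its points are measured values and not sizes to be read exactly.

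The probe signals of miR-205 show how near to background it came. Before scaling, its first probe had mean signals of 69.6, 41.0, 12.1 and 64.1 intensity units on the non-treated arrays and of 0.976, 1.95 and 2.66 on the treated ones. No spot of this probe was well above background on a treated array, against 9 or 10 spots on each non-treated array. A probe that is not well above background has only a bound there, and this probe was at least 3.76-fold lower on the treated arrays. The bound sets the non-treated mean against the lowest signal of any probe well above background on each treated array. Like that of the second probe below, it holds for the main scaling and background correction only. The limma adjusted p of 0.00406 belongs to the measured difference of -3.09, with low values at the floor, and not to the bound. The second probe had mean signals of 146, 92.3, 23.6 and 127 intensity units on the non-treated arrays and of 2.52, 5.57 and 2.69 on the treated ones. On treated replicate 3 this probe had 7 spots well above background, and on the other treated arrays 0. With those raised to their lowest signal well above background, this probe was at least 7.40-fold lower on the treated arrays. The limma adjusted p of 0.00209 belongs to its measured difference of -3.41 and not to the bound. The lowest non-treated signals of both probes were those of replicate 3, the array that was dim throughout.

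A ratio of members on the same array does not depend on a scaling factor per array, but it does depend on the background correction. With normexp on median signals the differences were 0.31 for miR-200b and -0.20 for miR-200c. They were 0.26 for miR-200a and 0.12 for miR-141. In both pairs these lay closer together than the values given above, so the sizes of the ratios below hold for the main background correction only. All 15 pairs of members were compared, and the groups did not overlap in 13 of them. The pairs share members and are not independent. Over all 236 miRNAs tested, 71.6% of single miRNAs had groups that did not overlap. The share over pairs of all miRNAs was not computed. For each of the 13 the exact 2-sided permutation p was 0.0571, the smallest possible, and 0.0659 after Benjamini-Hochberg adjustment over the 15 pairs, so that none could pass 0.05. Only the difference of a ratio between the groups is read, since the level of one probe cannot be set against that of another.

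With the main background correction, ratios between the clusters differed between the groups within each seed group, though no pair could pass 0.05 in the exact permutation test. Among the members with the seed AAUACUG, the log2 ratio of miR-200b over miR-200c was 1.97 ± 0.07 (SD, n = 4) on the non-treated arrays and 3.0 ± 0.07 (SD, n = 3) on the treated ones, a difference of 1.03 (SE 0.05), or 2.04-fold. The ratio of miR-429 over miR-200c differed by 1.10 (SE 0.08), or 2.14-fold. Among the members with the seed AACACUG, the log2 ratio of miR-200a over miR-141 was 2.08 ± 0.17 (SD, n = 4) on the non-treated arrays and 2.58 ± 0.12 (SD, n = 3) on the treated ones, a difference of 0.50 (SE 0.11), or 1.42-fold. The other ratios of a chromosome 4 member over a chromosome 6 member differed by 0.58 to 0.95. Thus all 6 ratios between the clusters were higher on the treated arrays, with no overlap of the groups.

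Within the chromosome 4 cluster the ratios moved little. The ratio of miR-200a over miR-200b differed by -0.07 (SE 0.09) and that of miR-200b over miR-429 by -0.07 (SE 0.07), and the groups overlapped in both, with exact permutation p values of 0.457 and 0.4. The ratio of miR-200a over miR-429 differed by -0.14 (SE 0.04) without overlap, and by 0.00 when only the brightest probe of each miRNA was used. Within the chromosome 6 cluster the log2 ratio of miR-200c over miR-141 was 0.65 ± 0.12 (SD, n = 4) on the non-treated arrays and 0.20 ± 0.13 (SD, n = 3) on the treated ones, a difference of -0.45 (SE 0.09) without overlap. Ratios over miR-205 were higher on the treated arrays for all 5 members of the family, by 3.23 for miR-200c up to 4.32 for miR-429 as measured. Since miR-205 was near background on the treated arrays, the size of these differences is uncertain.

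**Figure D3:**
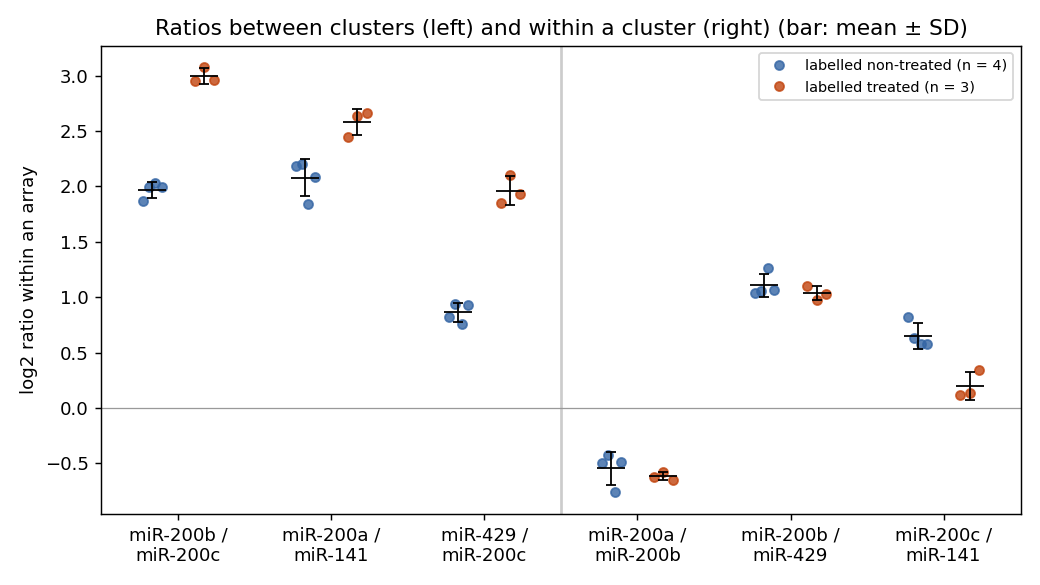
Log2 ratio of 6 pairs of members within an array (vertical axis), between the clusters (left of the grey line) and within a cluster (right), on the 4 arrays labelled non-treated (blue) and the 3 labelled treated (red), with mean and SD as bars. The ratios between clusters lie higher on every treated array, by 0.50 to 1.10 on average. Of the 3 ratios within a cluster that are shown, 2 overlap and that of miR-200c over miR-141 lies lower. The ratio of miR-200a over miR-429, not shown, also lay lower without overlap, by -0.14.

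How far the sign of a member depends on the scaling was read from 7 scalings, including none. Since the arrays labelled treated were dimmer, the median difference of all tested miRNAs went from -1.28 without scaling to 0.12 with the 75th percentile of all miRNAs. Without scaling the differences of miR-200a, miR-200b and miR-429 were -0.33, -0.25 and -0.18, so the sign of these members turned, and none passed the test there. With the mean of all miRNAs they kept their sign, at 0.23, 0.30 and 0.37, but did not pass the test either. Under each of the 7 scalings they lay above the median of all tested miRNAs, by 0.66 to 0.96 for miR-200a, by 0.85 to 1.03 for miR-200b and by 0.85 to 1.10 for miR-429. miR-141 lay above the median by 0.45 to 0.51 and miR-200c by 0.00 to 0.16, while the sign of both turned with the scaling. miR-205 was lower under all 7, by between -4.51 and -3.10, and lay between -3.23 and -3.19 relative to the median. The background correction bore on these values too. With normexp on median signals and an offset of 50, the median of all tested miRNAs was 0.29, and miR-200a (0.26), miR-200b (0.31) and miR-429 (0.39) lay at most 0.11 above it, with miR-200a below it.

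**Figure D4:**
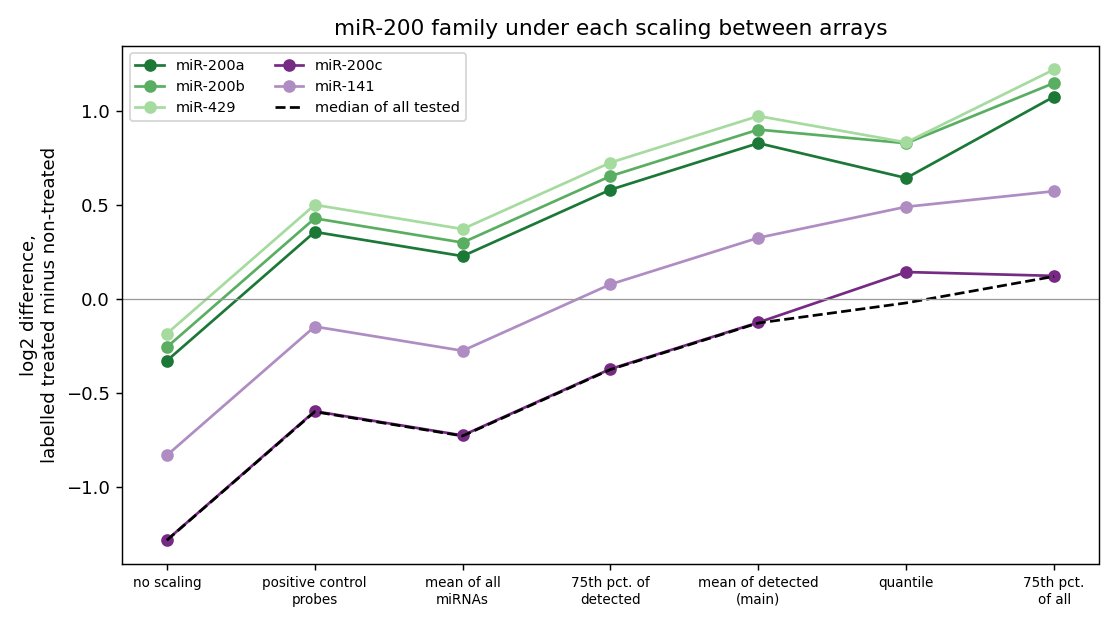
Log2 difference between arrays labelled treated and labelled non-treated (vertical axis) for the 5 members of the miR-200 family under 7 scalings between arrays (horizontal axis), with the median of all tested miRNAs dashed. The chromosome 4 members (green) lie 0.66 to 1.10 above the dashed line under every scaling, and miR-200c (dark purple) lies 0.00 to 0.16 above it.

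The passenger strands, the strand of a hairpin that is mostly degraded after processing, were measured by probes of their own and carry a star in their name. Both that were detected come from the chromosome 4 cluster.
miR-200a*: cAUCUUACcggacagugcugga
miR-200b*: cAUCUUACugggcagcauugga
miR-200a* was read at 2.83, 2.82, 3.28 and 2.58 on the non-treated arrays and at 4.20, 4.15 and 4.04 on the treated ones, a difference of 1.25 (SE 0.16) with a limma adjusted p of 1.18e-04. miR-200b* was read at 3.17, 3.49, 3.25 and 3.02 on the non-treated arrays and at 4.18, 4.58 and 4.25 on the treated ones, a difference of 1.10 (SE 0.14) with a limma adjusted p of 1.32e-04. Both were higher on the treated arrays, as their partner strands were, with no overlap of the groups, although without scaling miR-200b* stood at -0.06 and miR-200a* at 0.09. Most of their probes were at background. Of the 3 probes for miR-200a*, 1 was well above background on 3 of 4 non-treated and 2 of 3 treated arrays. Another was so on a single treated array, and 1 on none. For the probe seen on a single treated array no bound is given, since its treated mean rests mostly on arrays where it was at background. Of the 4 probes for miR-200b*, 1 was well above background on all 7 arrays, with a difference of 1.04 (SE 0.16) and a limma adjusted p of 0.00243, and the others on none. The differences of the summed signals are thus uncertain in size. miR-200c* and miR-141* were detected on none of the 7 arrays and were not tested.

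In a list of 10 other epithelial miRNAs most of those tested were higher on the treated arrays as well. Of those called higher only miR-30d turned sign under any of the 7 scalings, with the mean of all miRNAs and without scaling. Of the 10 listed 8 were tested, and 6 were called higher, 1 lower and 1 neither way. The list was chosen with earlier results of these data known, so its counts are a description and no test. It does not cover all epithelial miRNAs. For example, miR-183 (-2.04), miR-96 (-1.53) and miR-182 (-1.80), which it leaves out, were called lower. Over all miRNAs tested 25.8% were called higher and 34.7% lower. The median difference of the 8 was 1.39, against -0.13 over all miRNAs tested. miR-192 and miR-194, which are abundant in tubule epithelium, differed by 3.24 (SE 0.21) and 2.92 (SE 0.14), against at most 0.97 in the miR-200 family, and stayed higher by 2.08 and 1.76 without scaling. miR-30e, miR-30c, miR-30a and miR-30d, of a family enriched in kidney epithelium, were higher by 2.07, 1.61, 1.16 and 0.51. miR-204, an epithelial miRNA of tubule and retina, was lower by -0.56. miR-203, which like miR-205 is known from stratified epithelia, differed by 0.17 (SE 0.25) with a limma adjusted p of 0.581. The difference between miR-203 and miR-205 was not tested. miR-215 and miR-211 were detected on no array.

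The miRNAs of mesenchymal cells and fibrosis moved the other way, under each of the 7 scalings. Their list was chosen with earlier results of these data known. The study itself names miR-199a-3p, miR-199a-5p, miR-214 and miR-21 among its changed miRNAs, so the count is a description and no test. All 6 listed were called lower on the arrays labelled treated, against 34.7% of all miRNAs tested, with a median difference of -2.30. They were miR-199a-3p (-2.55), miR-199a-5p (-2.41) and miR-214 (-2.51), which share a transcript in fibroblasts, miR-143 (-1.05) and miR-145 (-0.82), known from smooth muscle, and miR-21 (-2.18), which is raised in many fibrotic tissues. miR-205 was the only one of the 6 members called lower with them. Of 10 miRNAs tied to transforming growth factor beta and mesenchymal transition, 3 were called higher, 4 lower and 3 neither way, shares near those of all miRNAs tested (25.8% higher and 34.7% lower), with a median difference of -0.07. The higher ones were miR-29c (1.49) and miR-29b (1.18), which repress collagens, and miR-101a (0.66), the last of which turned to -0.49 without scaling. The lower ones were miR-21, miR-155 (-1.82), miR-23a (-0.995) and miR-27a (-0.72), while miR-29a, miR-34a and miR-101b did not pass the test.

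Markers of cell types moved with the groups, and their part in the differences of the members was not tested. The counts below stand beside 25.8% called higher and 34.7% called lower over all miRNAs tested. These lists too were chosen with earlier results of these data known, so the counts are a description and no test. Of the tubule markers on the array 3 of 4 were detected, of which miR-192 and miR-194 were called higher and miR-204 lower, and their summed log2 level was 11.11 to 11.21 on the treated arrays and 7.94 to 8.70 on the others, most of it miR-192. All 6 markers of white blood cells were called lower, with summed levels of 8.40 to 8.46 against 10.45 to 10.80. All 5 markers of mesenchyme were called lower as well, with summed levels of 9.16 to 9.20 against 11.31 to 11.49. Both red cell markers on the array, miR-144 and miR-451, were called higher, with summed levels of 12.17 to 12.32 against 10.08 to 11.19. Neither endothelial marker was called, with summed levels of 10.80 to 10.89 against 10.79 to 10.93, and miR-126-3p differed by -0.00. Of the stratified epithelium markers miR-203* was detected on no array, so that list rests on miR-203. Of the striated muscle markers 2 of 3 were tested and 0 were called. The liver marker miR-122 was detected on no array, and the tubule markers miR-192 and miR-194 were detected on all 7, as known for kidney.

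The miRNAs whose levels ran most like each member over the 7 arrays were named by Pearson's r of the scaled log2 signals, the 2 highest for each. Since the arrays fall into 2 groups, r mostly reads the difference between them and is a description only. For miR-200a these were miR-101a (r = 0.996) and miR-582-5p (0.994), for miR-200b miR-30a* (0.996) and miR-212-3p (0.990), and for miR-429 miR-221 (0.997) and miR-712 (0.994). The nearest to miR-205 were miR-195 (0.992) and miR-182 (0.989). The chromosome 6 members had less close neighbours, with miR-196a (0.892) and miR-872 (0.837) for miR-200c and miR-222 (0.889) and miR-455 (0.884) for miR-141.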

How the data were processed

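Kidney RNA of 3 arrays labelled treated and 4 labelled non-treated was analysed. The files deposited by the authors come from the scanner software Agilent Feature Extraction 10.7.3.1. Their processed spot intensity is linear and background-subtracted, and other columns flag outliers, background and detection. The deposited value table holds the processed intensity of 1 spot per probe for 6 arrays, within a relative tolerance of 1e-05, unscaled. For treated replicate 4 it holds error estimates. Control spots and outliers were left out. Spot means were summed per miRNA, scaled, floored at 1.99 (0.99 as log2; probes at 2.54) and taken as log2. The study's methods name the array mean for normalization, here taken over 186 miRNAs. limma 3.58.1 in R 4.3.3 fitted 236 miRNAs without covariates, with Benjamini-Hochberg adjustment over all of them and a threshold of 0.01. Precision is limited by the number of arrays. The steps were tested on simulated data.

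No spot was saturated. Named are the members, their probes and passenger strands, fixed lists and the 2 most similar miRNAs per member. Members and lists were chosen with earlier results of these data known. Alternatives covered scaling, signal, filter, floor, test, threshold, probes, replicate and slide row blocks and each array left out. Values within slide rows, scaling without the members and the bounds of miR-205 were added after seeing the data. RefSeq tables of GRCm38.p6 gave sequences and coordinates, matched by name for all 6 members. The paper's human samples, PCR, transfections and tissue staining were not analysed here.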

Additional observations from a re-analysis of the deposited data

Results flagged for a closer look

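Dixon's test was applied to 24 sets of values from the 4 arrays labelled non-treated, of which chance would pick about 5%. It singled out 4, all of them non-treated replicate 3. That array read miR-200c at 7.63, with the others at 7.26 to 7.33. Its log2 ratio of miR-200b over miR-429 was 1.26, with the others at 1.04 to 1.06. Before scaling, the 186 miRNAs used for scaling had a mean log2 signal of 6.65 there (others 7.40 to 7.52) and that of the positive control probes 11.33 (others 12.02 to 12.08). The part of the dim signal in the first 2 values was not tested.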

How the results depend on the processing

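In the main setting 143 miRNAs were called, 61 higher and 82 lower. The scaling decided the split, with 8 higher and 166 lower without scaling, 30 and 131 with the mean of all miRNAs, 44 and 143 with the control probes, 50 and 103 with the 75th percentile of the detected miRNAs, and 76 and 61 with that of all miRNAs. With normexp on median signals and an offset of 50, another background correction, the split was 105 and 52. The mean of all miRNAs gave 0.23 for miR-200a, 0.30 for miR-200b and 0.37 for miR-429, none past the threshold, -0.72 for miR-200c, past it, and -0.27 for miR-141, reversed. Without scaling miR-200a (-0.33), miR-200b (-0.25), miR-429 (-0.18) and miR-141 (-0.83) reversed and miR-200c passed at -1.28. The control probes gave -0.60 for miR-200c, past the threshold, and -0.15 for miR-141, reversed. miR-200c reversed to 0.12 with the 75th percentile of all miRNAs and to 0.14 with quantile normalization, where miR-141 passed at 0.49. With normexp miR-200a missed the threshold at 0.26, with a limma adjusted p of 0.0302. The deposited table, without treated replicate 4, gave 89 calls and miR-200b at 1.04, past the threshold no longer (limma adjusted p 0.0106). Bonferroni adjustment left 84 calls, without miR-200b (0.90) and miR-205 (-3.35). A single probe for miR-200b missed the threshold at 0.93. With the brightest probe only, the ratios of miR-200a and of miR-200b over miR-429 reversed to 0.00024 and 0.042. The causes were not tested beyond what each construction shows. The methods' t-test called 140 miRNAs at their threshold and 126 after Benjamini-Hochberg adjustment.

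Leaving out 1 array moved miR-141 between 0.25 and 0.41, the latter without non-treated replicate 3 and past the threshold, and the number of calls between 127 and 163. It changed no call of the other members. miR-205 stayed lower in all 30 alternatives, from -5.53 to -0.54, the latter with normexp, and could not be tested among miRNAs detected on every array. Replicate numbers showed no clear pairing of the arrays, though so few arrays cannot exclude one. Deviations of same-numbered arrays correlated at -0.00057, -0.022 and 0.19, the last being the highest of all pairs. Of the 3 treated arrays, 1 correlated best with its own number. With the replicate number as a block 127 miRNAs were called, with 0.84 for miR-200a, 0.87 for miR-200b, 0.96 for miR-429, -0.16 for miR-200c, 0.29 for miR-141 and -3.39 for miR-205 and no change of call. Blocking on the slide row gave 133 calls and changed none of the members. The signal of miR-205 on the treated arrays was near background, which limits the size of its difference.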

Other observations

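The columns of the deposited value table had medians of 0.445, 0.532, 0.470 and 0.346 intensity units for non-treated replicates 1 to 4 and of 0.322 and 0.276 for treated replicates 1 and 3. Treated replicate 4, whose column gives error estimates, had a median of 1.001. The table is linear and not centred, and it carries no direction of its own.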
